A study of Mus musculus with 6 samples.

Results

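The 34 interferon-stimulated genes examined here are transcripts that cells raise after exposure to interferon. They were taken as a list of gene symbols, and each was found on the array through its annotated probe set. All 34 were measured, with 1 probe set each, among 25206 probe sets in all. They comprise 29 genes of the antiviral programme typical of type I interferon, the guanylate-binding protein genes Gbp2, Gbp3, Gbp5 and Gbp7, and Irf1, which answers strongly to interferon gamma as well. RNA came from thioglycollate-elicited peritoneal macrophages of Tet2-/- mice and their wild-type littermates, both on the C57BL/6J strain. Mice received 1 mL of 4% thioglycollate, an irritant that draws macrophages into the peritoneal cavity, and cells were harvested after 4 days. They were plated in culture, given no treatment, and lysed for RNA 10 h later. There were 3 arrays per genotype, labelled as biological replicates 4, 5 and 6. The labels give no age, and whether each replicate is a separate animal is not stated outright, so the spread behind each p-value may be technical. The Tet2-/- mice are described only as deficient in Tet2, an enzyme that oxidises methylated cytosine in DNA, with no cell type restriction named. The title and the genotype entry of 4 samples contradict each other, and genotype was taken from the title.

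Type I interferons signal through a receptor of Ifnar1 and Ifnar2 chains and the kinases Jak1 and Tyk2 to a transcription factor complex that holds STAT2 and IRF9. That complex binds the interferon-stimulated response element in promoters of antiviral genes. Interferon gamma, made mainly by T and natural killer cells, signals through Ifngr1 and Ifngr2, acts on promoters that hold the gamma-activated sequence, and induces Irf1 and the guanylate-binding proteins. Macrophages respond to both kinds of interferon, and many of these genes are shared targets.

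To show the regulatory sequence that these genes share, RefSeq promoter windows (assembly GRCm38.p6, 250 bases before to 50 after each start) were searched on both strands for a pair of motifs. The response element core was taken as a pair of GAAA blocks with any 2 bases between them, and the gamma-activated sequence as TTCNNNGAA. Windows were matched for 26 of the 34 genes. The core was found in 15 of these 26 genes, in 16 of their 33 windows (48.5%), against 3.44% of all 32851 windows. The gamma-activated sequence was found in 8 of the 33 windows (24.2%), against 8.3% of all. All 4 guanylate-binding protein genes held the core, as did 11 of 21 antiviral genes with a window. The stretches below are from the guanylate-binding protein genes, Irf1 and antiviral genes picked as examples among those with a match. They are written 5′ to 3′ on the gene's strand with motif matches in capitals.
Gbp2, chr3:142620592-142620625 (plus strand): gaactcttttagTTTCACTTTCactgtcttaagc
Gbp3, chr3:142559987-142560026 (plus strand): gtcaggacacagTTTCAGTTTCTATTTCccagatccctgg
Gbp7, chr3:142530218-142530304 (plus strand): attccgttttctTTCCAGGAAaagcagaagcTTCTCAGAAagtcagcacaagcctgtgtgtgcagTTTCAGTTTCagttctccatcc
Gbp5, chr3:142496684-142496902 (plus strand): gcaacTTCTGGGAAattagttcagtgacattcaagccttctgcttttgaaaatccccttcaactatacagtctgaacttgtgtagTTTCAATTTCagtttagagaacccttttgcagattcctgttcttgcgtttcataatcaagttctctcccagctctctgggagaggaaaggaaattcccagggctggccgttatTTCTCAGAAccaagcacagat
Irf1, chr11:53769912-53769944 (plus strand): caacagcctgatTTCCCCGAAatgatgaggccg
Isg15, chr4:156200863-156200908 (minus strand): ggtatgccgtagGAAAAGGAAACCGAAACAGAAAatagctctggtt
Ifit1, chr19:34640773-34640825 (plus strand): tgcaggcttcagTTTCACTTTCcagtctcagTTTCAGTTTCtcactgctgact
Oas1a, chr5:120907526-120907635 (minus strand): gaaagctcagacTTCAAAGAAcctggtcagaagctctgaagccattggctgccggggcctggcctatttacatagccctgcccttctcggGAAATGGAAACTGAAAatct
Bst2, chr8:71537575-71537620 (minus strand): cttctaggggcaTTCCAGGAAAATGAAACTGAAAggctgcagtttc
Matches overlap in Gbp3, Isg15, Oas1a and Bst2, where neighbouring cores share bases, and in Bst2 the gamma-activated sequence also shares bases with a core. Gbp7 and Gbp5 held both motifs, Gbp2 and Gbp3 only the core, and Irf1 only the gamma-activated sequence. A match describes the letters in the window and does not show that a factor binds there.

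The cells carried macrophage transcripts at high levels. Adgre1, Csf1r, Cd68, Itgam, Mertk and Fcgr1 lay between 7.39 and 11.23 log2 units in every array, against a median probe set level of 2.81. The Tet2 transcript itself overlapped between genotypes, at 4.35, 3.74 and 3.79 in wild-type replicates 4, 5 and 6 and 3.80, 4.05 and 3.67 in the arrays labelled Tet2-/-. Its difference was -0.12 (95% interval -0.56 to 0.32), so the transcript level does not check the labels, and the position of its probes against the deleted part was not analysed here. The array of Tet2-/- replicate 6 stood apart, with the highest median (2.93), the narrowest interquartile range (2.99) and the lowest mean correlation with the others (0.982).

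No interferon-stimulated gene differed between genotypes past the threshold (limma, Benjamini-Hochberg adjusted p = 0.998 to 1 for the 34 genes). Of the 34 genes, 23 were higher on average in Tet2-/-, 10 lower and 1 equal, with differences from -0.34 to 0.56 log2 units. The median difference was 0.08, against 0 over all probe sets. Over the whole array 0% of probe sets passed the adjusted threshold of 0.05. At an unadjusted p under 0.05 the count was 0 of 34, against 3.61% of all probe sets. The 2 groups of arrays did not overlap for 1 of the 34, against 7.41% of all probe sets. The 95% intervals of 32 genes lay within 1 log2 unit of 0, that is within a 2-fold difference in either direction. In bulk RNA, fewer cells of a type and less RNA per cell cannot be told apart.

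**Figure D1:**
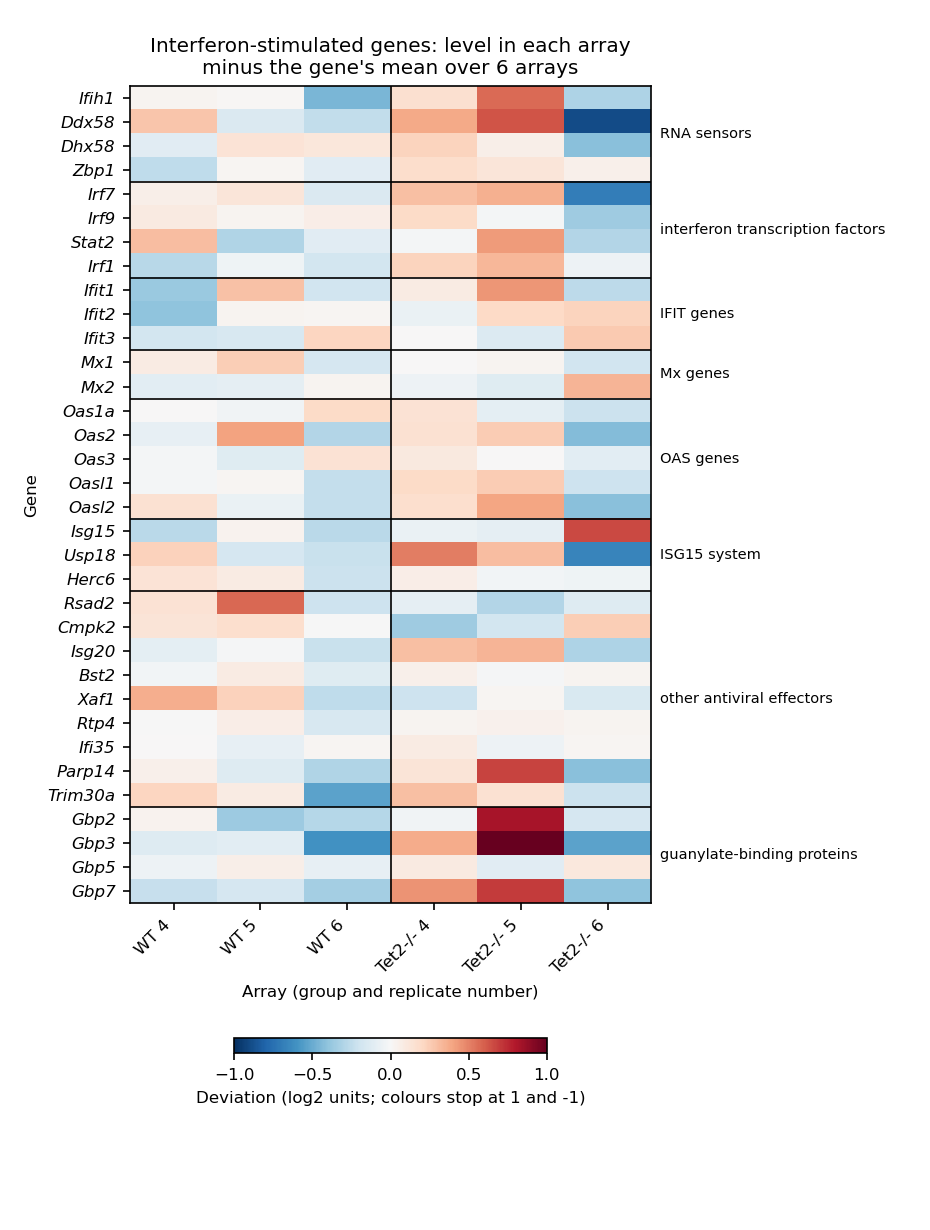
Colour gives each gene's log2 level in an array minus its mean over the 6 arrays, with genes in rows grouped by role and arrays in columns. Tet2-/- replicate 5 holds the highest value of 13 of the 34 genes and Tet2-/- replicate 6 the lowest of 12.

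**Figure D2:**
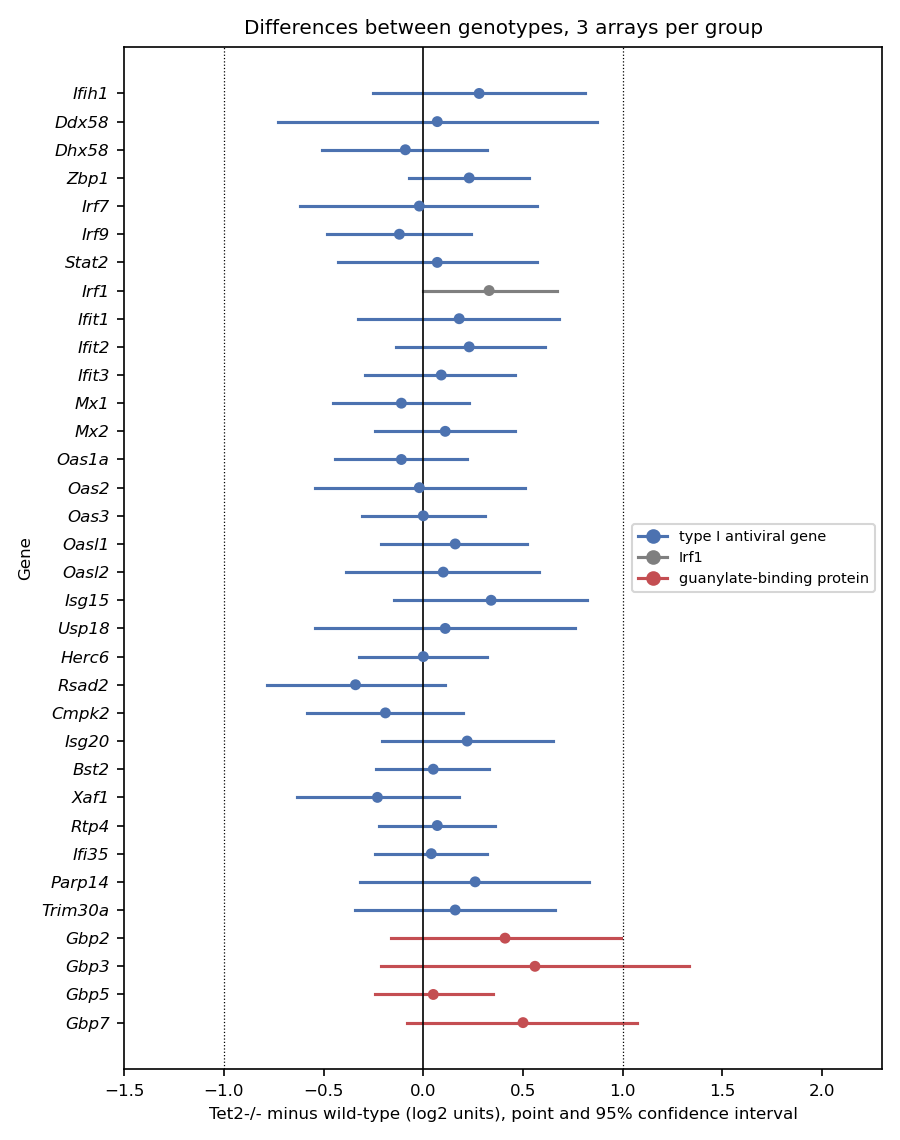
Points give the Tet2-/- minus wild-type difference of each gene in log2 units and bars its 95% confidence interval, from 3 arrays per group, with dotted lines at 1 and -1. All 34 intervals include 0, and only those of Gbp3 and Gbp7 reach past 1.

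The cytoplasmic sensors of viral nucleic acid were measured at middling levels in all 6 arrays. Ifih1, which encodes the long double-stranded RNA sensor MDA5, stood at 5.19, 5.17 and 4.70 in wild-type and 5.32, 5.73 and 4.85 in Tet2-/- replicates 4, 5 and 6, a difference of 0.28 (95% interval -0.25 to 0.81). Ddx58, encoding RIG-I, stood at 4.85, 4.43 and 4.33 in wild-type and 4.95, 5.20 and 3.68 in Tet2-/-. The Tet2-/- arrays of Ddx58 thus held both the highest and the lowest value, and spanned 1.52 log2 units against 0.52 in wild-type. Dhx58, encoding their relative LGP2, differed by -0.09 with overlapping groups. Zbp1, a sensor of Z-form nucleic acid that triggers cell death, was the 1 gene of the 34 whose groups did not overlap. Its levels were 4.42, 4.69 and 4.56 in wild-type and 4.85, 4.79 and 4.72 in Tet2-/-. The Zbp1 difference was 0.23 ± 0.132 (SE), or 1.17-fold, which did not pass (limma unadjusted p = 0.116, adjusted p = 0.998).

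Among the transcription factors that drive the programme, Irf7, the amplifier of interferon alpha production, stood at 5.37, 5.43 and 5.16 in wild-type and 5.61, 5.66 and 4.62 in Tet2-/-. Replicates 4 and 5 of Tet2-/- were above all wild-type arrays and replicate 6 was below them, so the means differed by only -0.02 (95% interval -0.62 to 0.57). Irf9, the DNA-binding subunit of the type I complex, ran from 4.98 to 5.04 in wild-type and from 4.60 to 5.14 in Tet2-/-, a difference of -0.12. Stat2 differed by 0.07 with overlapping groups. Irf1 had the smallest unadjusted p of the 34 genes. It stood at 4.37, 4.61 and 4.47 in wild-type and 4.87, 4.98 and 4.60 in Tet2-/-. Its difference of 0.33 ± 0.148 (SE), or 1.26-fold, missed the threshold (limma unadjusted p = 0.0515, adjusted p = 0.998), and Tet2-/- replicate 6 lay just under wild-type replicate 5.

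The IFIT genes, whose products bind foreign RNA ends, were dim, with all 3 below the median probe set. Ifit1 stood at 2.39, 3.05 and 2.57 in wild-type and 2.84, 3.20 and 2.50 in Tet2-/-, a difference of 0.18 (95% interval -0.33 to 0.68). Ifit2 and Ifit3 differed by 0.23 and 0.09. Wild-type replicate 4 held the lowest value of all 3 genes. The Mx GTPases block viral nucleoproteins, although the C57BL/6 strain is known to carry a disrupted Mx1. Mx1 and Mx2 lay between 1.40 and 1.96 in every array, differing by -0.11 and 0.11. The deposited method compresses differences near background, so changes of these dim genes may be understated, and probes of Ifit3 or Oas1a may also read their near-identical copies.

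The OAS genes encode enzymes that make the activator of RNase L, and their OAS-like relatives. Their differences spread on both sides of 0, from -0.11 for Oas1a to 0.16 for Oasl1, with Oas2 at -0.02, Oas3 at 0.00 and Oasl2 at 0.10. Oas3 showed the same mean in both groups, at 4.30, 4.20 and 4.47 in wild-type and 4.42, 4.33 and 4.22 in Tet2-/-. The groups overlapped for all 5 genes, and the widest interval, that of Oas2, ran from -0.54 to 0.51.

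The ISG15 system couples a small ubiquitin-like protein to targets. Isg15, the modifier, stood at 2.59, 2.89 and 2.59 in wild-type and 2.79, 2.77 and 3.52 in Tet2-/-. Its difference of 0.34 (95% interval -0.15 to 0.82) rested on Tet2-/- replicate 6, and was 0.09 without that array. Usp18, the protease that removes ISG15 and damps the receptor, was lowest in that same array, at 4.64, 4.44 and 3.47 in Tet2-/- and 4.36, 3.96 and 3.91 in wild-type. Herc6, the ligase that attaches ISG15 in mice, differed by 0.00 (95% interval -0.32 to 0.32).

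Of the other antiviral effectors, 6 of 9 were higher and 3 lower, with a median difference of 0.05. Bst2, the tethering protein that holds budding virus on the membrane, was the brightest of the 34 genes. It ranged only from 8.11 to 8.31 in wild-type and from 8.22 to 8.28 in Tet2-/-, a difference of 0.05 (95% interval -0.24 to 0.33). Rtp4 and Ifi35 were similarly tight, differing by 0.07 and 0.04. The largest negative difference was that of Rsad2, which encodes the antiviral radical-SAM enzyme viperin. Rsad2 stood at 5.22, 5.65 and 4.87 in wild-type and 4.99, 4.78 and 4.95 in Tet2-/-. The Rsad2 difference was -0.34 ± 0.197 (SE; limma unadjusted p = 0.119, adjusted p = 0.998), and wild-type replicate 6 lay among the Tet2-/- values. It was -0.14 without wild-type replicate 5 and 0.05 with genotype taken from the characteristic. Cmpk2, a nucleotide kinase gene that neighbours Rsad2, differed by -0.19, and stood at 4.09, 4.13 and 3.96 in wild-type and 3.61, 3.78 and 4.21 in Tet2-/-. Xaf1, a partner of the apoptosis inhibitor XIAP, differed by -0.23. Isg20, an RNA exonuclease, differed by 0.22, Parp14, an ADP-ribosyltransferase, by 0.26, and Trim30a by 0.16. Parp14 was highest in Tet2-/- replicate 5, at 6.55, and lowest in replicate 6, at 5.45.

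The guanylate-binding proteins are large GTPases that coat and break open vacuoles of intracellular pathogens, and 3 of the 4 showed the largest differences of all 34 genes. Gbp3 stood at 4.46, 4.48 and 3.98 in wild-type and 4.96, 5.59 and 4.05 in Tet2-/-. The Gbp3 difference was 0.56 ± 0.34 (SE), or 1.47-fold (limma unadjusted p = 0.135, adjusted p = 0.998). Gbp7 stood at 2.92, 2.98 and 2.81 in wild-type and 3.60, 3.85 and 2.75 in Tet2-/-. Its wild-type values lay close to the median probe set level of 2.81. The Gbp7 difference was 0.50 ± 0.255 (SE), or 1.41-fold (limma unadjusted p = 0.0836, adjusted p = 0.998). Gbp2 stood at 4.59, 4.19 and 4.27 in wild-type and 4.52, 5.38 and 4.39 in Tet2-/-, a difference of 0.41 ± 0.253 (SE). In Gbp3 and Gbp7, Tet2-/- replicates 4 and 5 were above every wild-type array and replicate 6 was inside or below the wild-type range, whereas in Gbp2 only replicate 5 was above. Gbp5, which assembles on pathogen membranes and promotes inflammasome activity, was dim, between 1.42 and 1.64 in all arrays, and differed by 0.05.

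**Figure D3:**
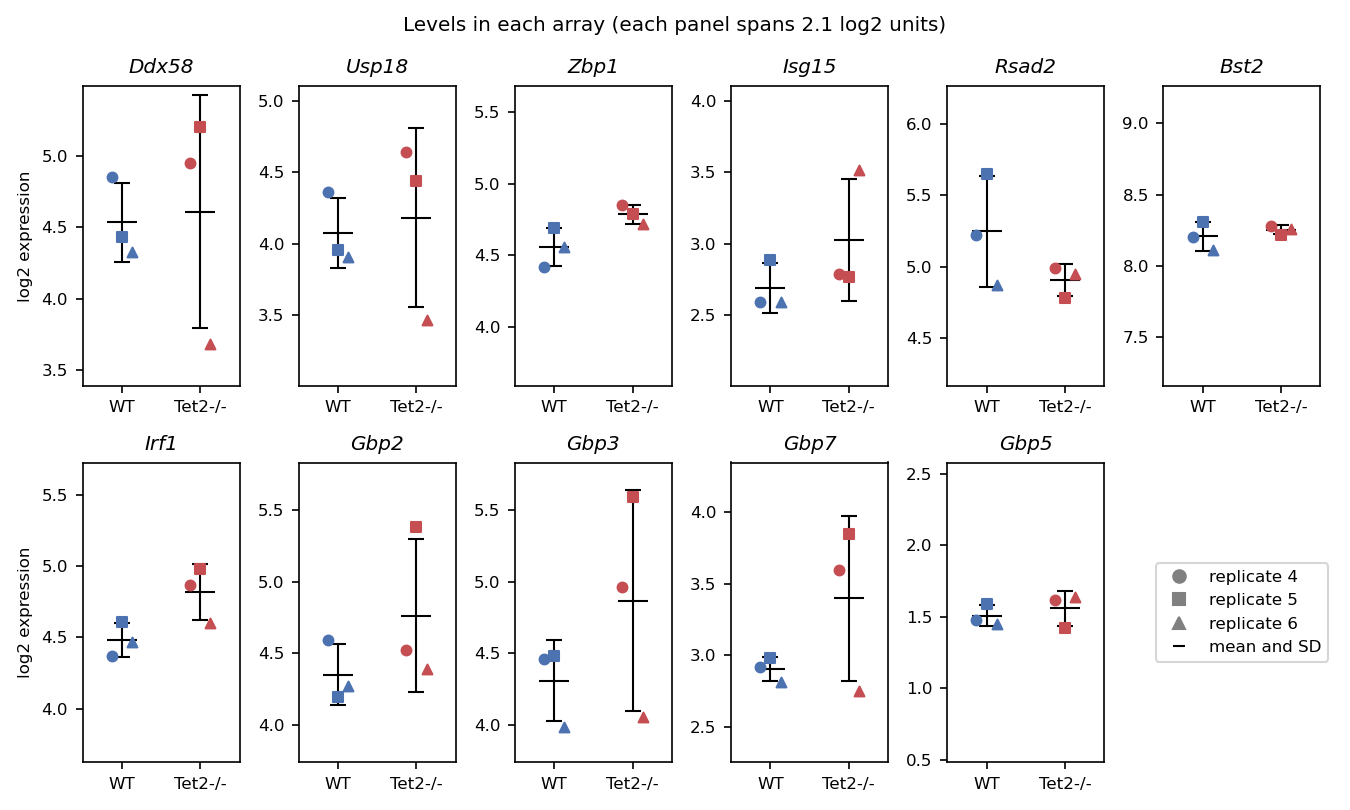
Each panel gives 1 gene's log2 level by genotype, with a symbol for each replicate number and black bars for the mean and SD of 3 arrays; every panel spans the same number of log2 units. Gbp2, Gbp3 and Gbp7 are highest in Tet2-/- replicate 5, while Bst2 and Gbp5 hardly vary.

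The comparison of both classes placed the antiviral genes near 0 and the guanylate-binding proteins above. The 29 antiviral genes had a median difference of 0.07, with 18 higher, 10 lower and 1 equal. All 29 intervals lay within 1 log2 unit of 0, the widest bounds being -0.79 for Rsad2 and 0.87 for Ddx58. The 4 guanylate-binding proteins were all higher, with a median of 0.46. The antiviral minus guanylate-binding gap was -0.38 log2 units, described here without a test because it rests on a chosen list of 4 genes. Array by array, the antiviral median deviation minus the guanylate-binding one was 0.10, 0.17 and 0.15 in wild-type replicates 4, 5 and 6. In Tet2-/- it was -0.13, -0.70 and 0.08. The gap therefore came from Tet2-/- replicates 4 and 5, and above all from 5, while replicate 6 was close to wild-type. Antiviral subgroups varied in Tet2-/- replicates 4, 5 and 6. Their median deviations were 0.20, 0.34 and -0.37 for the RNA sensors and 0.15, 0.25 and -0.21 for the OAS genes. The other effectors stood at 0.05, 0.02 and -0.13 and the ISG15 system at 0.07, -0.02 and -0.04. The IFIT genes stood at 0.00, 0.20 and 0.22 and the Mx genes at -0.02, -0.05 and 0.07. The transcription factors, with Irf1, stood at 0.20, 0.34 and -0.32. Without Tet2-/- replicate 5 the guanylate-binding median was 0.16 and the antiviral median 0.00, so that 1 array carried most of the gap. With genotype taken from the characteristic in place of the title, the medians were 0.12 and 0.02.

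Without Tet2-/- replicate 6, the array that stood apart, the guanylate-binding median was 0.71 and the antiviral median 0.09. In that fit 11 of the 34 genes had an unadjusted p under 0.05, against 9.87% of all probe sets, and 0 of 34 passed the adjusted threshold. They were Gbp7, Gbp3, Gbp2, Irf1, Ifih1, Ddx58, Irf7, Usp18, Isg20 and Parp14, all higher in Tet2-/-, and Cmpk2, which was lower. Gbp7 came nearest, at 0.82 ± 0.139 (SE; limma unadjusted p = 0.000267, adjusted p = 0.101), followed by Gbp3 at 0.97 ± 0.222 (SE; limma adjusted p = 0.235). This fit leaves 2 Tet2-/- arrays against 3.

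Neighbouring genes of the family were read in the same way. In the gene cluster that holds Gbp5, Gbp7, Gbp3, Gbp2b and Gbp2, the median difference was 0.50 over 5 genes. Gbp2b, the member of the cluster known as mouse GBP1, stood at 2.72, 2.29 and 2.20 in wild-type and 3.15, 3.60 and 2.17 in Tet2-/-, a difference of 0.57 (limma unadjusted p = 0.114, adjusted p = 0.998). The mean level of Gbp2b, 2.69, was below the median probe set level of 2.81. In the other cluster, with Gbp4, Gbp8, Gbp9, Gbp10 and Gbp11, the differences ran from 0.01 to 0.13. Genes of a cluster are related in sequence, and their probe sets may share signal, so they cannot be taken as independent measurements. Gbp6 was not analysed here.

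Marker lists of macrophages, B cells, monocytes and resident macrophages were high in Tet2-/- replicates 4 and 5, and 0 of the markers passed the threshold (limma adjusted p = 0.483 to 0.998). The general macrophage markers had median deviations of 0.31 and 0.47 in Tet2-/- replicates 4 and 5 and -0.49 in replicate 6. In wild-type replicates 4, 5 and 6 they stood at 0.20, -0.16 and -0.25. Of these 6 markers 3 were higher in Tet2-/- and 3 lower. Receptor and JAK-STAT genes stood at 0.12, 0.25 and -0.29 in Tet2-/- replicates 4, 5 and 6. B cell markers were higher in Tet2-/- for 7 of 8 genes, and their summed log2 level was 25.6 to 26.9 in wild-type and 25.5 to 37.6 in Tet2-/-. Their median deviations were 0.42 and 1.25 in Tet2-/- replicates 4 and 5 and -0.41 in replicate 6. Cd79b, a chain of the B cell receptor, stood at 3.27, 3.62 and 3.79 in wild-type and 4.86, 6.12 and 4.36 in Tet2-/-, whereas Cd22 differed by -0.80. Monocyte markers were higher for 6 of 7 genes, summing to 28.2 to 30.6 in wild-type and 31.2 to 38.7 in Tet2-/-. Ccr2, the monocyte chemokine receptor, differed by 1.38, and Ly6c1 was near the floor in all arrays, at 0.79 to 1.34. Markers of resident large peritoneal macrophages were higher for 7 of 9, summing to 44.7 to 48.6 and 45.4 to 55.9. T and natural killer cell markers, from the main sources of interferon gamma, were dim, with median deviations of -0.09 and -0.07 in Tet2-/- replicates 4 and 5, and sums of 17.7 to 19.9 and 17.7 to 19.7. The part of these cell types in the guanylate-binding protein values was not tested.

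Plasmacytoid dendritic cell markers, from the main producers of interferon alpha, were higher in Tet2-/- for 6 of 8 genes and lower for 2. Siglech, their defining receptor, lay between 2.41 and 3.21 and differed by 0.03, while Ly6d, which B cells also express, differed by 0.90. Cox6a2 differed by 0.53 (limma unadjusted p = 0.0318, adjusted p = 0.998), and Ccr9 by -0.24. Summed levels of the 8 measured markers were 22.9 to 25.1 in wild-type and 24.7 to 25.6 in Tet2-/-. Conventional dendritic cell markers summed to 13.2 to 13.8 and 13.6 to 14.5, neutrophil markers to 18.8 to 20.1 and 19.7 to 22.4. Eosinophil and mast cell markers summed to 18.2 to 18.9 in wild-type and 17.0 to 17.9 in Tet2-/-. Of these 8 markers 4 were higher and 4 lower, from -1.21 for Siglecf to 0.30 for Tpsb2.

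**Figure D4:**
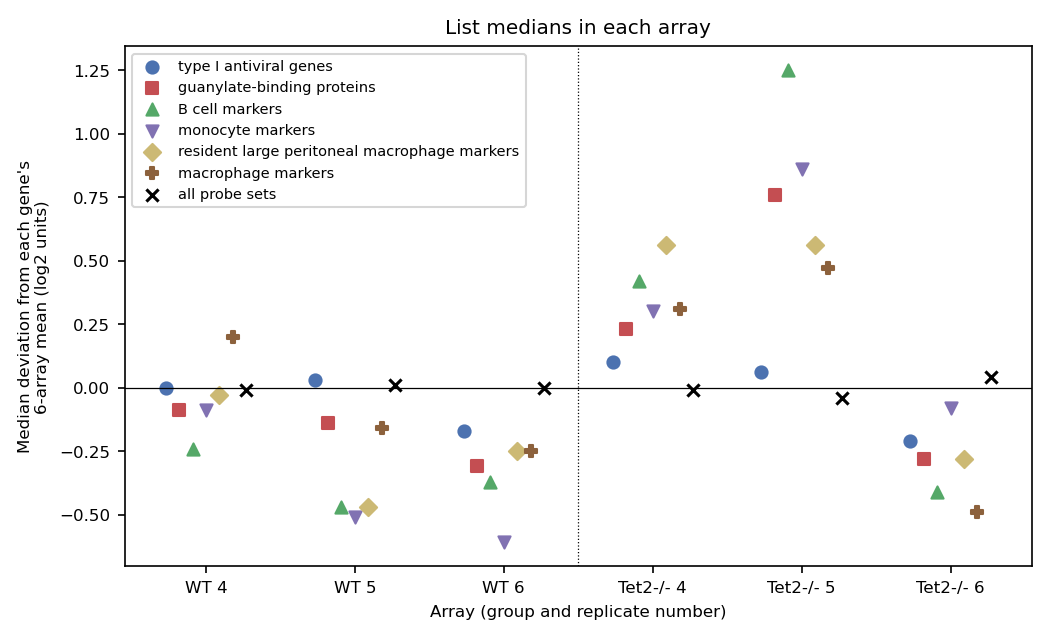
Points give, for each array, the median over a gene list of the log2 deviation from each gene's 6-array mean. Guanylate-binding proteins (0.23 and 0.76) lie above 0 in Tet2-/- replicates 4 and 5. So do the general macrophage (0.31 and 0.47), B cell, monocyte and resident macrophage markers. In these arrays the antiviral genes (0.10 and 0.06) lie nearer the all-probe-set values (-0.01 and -0.04). The antiviral genes lie below those values in Tet2-/- replicate 6 (-0.21 against 0.04) and wild-type replicate 6 (-0.17 against 0.00). The general macrophage markers also lie above 0 in wild-type replicate 4 (0.20).

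The arrays also differed in how all 34 genes sat within them. Tet2-/- replicate 5 held the highest value for 13 of 34 genes (38.2%), against 14% of all probe sets, and replicate 6 the lowest for 12 (35.3%), against 20.5%. Read by level, among the 22 genes with a mean of 4 to 6, replicate 6 was lowest for 9 (40.9%), against 35.6% of the 5080 probe sets at that level. Replicate 5 was highest for 10 of the 22 (45.5%), against 25.3%. Among the 11 genes under 4, replicate 6 was highest for 6 (54.5%), against 37.2% of probe sets at that level, which is where Isg15 falls. The Tet2-/- range was wider than the wild-type range for 22 of 34 genes (64.7%), close to the 62.8% of all probe sets.

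Genes upstream of the programme and further inducible genes did not pass either. Of 105 measured genes of 117 in 5 interferon pathway lists, 0 passed the adjusted threshold and 4 had an unadjusted p under 0.05, against 3.61% of all probe sets. Those were Socs3, from the receptor and JAK-STAT list, and Irgm2, Ifi27l2a and Ifi207, from the lists of inducible genes. Interferon genes themselves were 7 higher and 9 lower among 16 measured, with a median of -0.02. Ifnb1 lay between 1.11 and 1.47, and Ifng between 2.09 and 2.35, in every array. Ifna4, Ifna13 and Ifna14 had the smallest p among them, with differences of 0.34, -0.22 and -0.25. Receptor and JAK-STAT genes were 11 higher and 5 lower of 16, with Ifnar1 at -0.09, Ifnar2 at 0.15 and Ifngr1 at 0.21. Socs3, a feedback inhibitor of JAK signalling, stood at 3.60, 3.47 and 3.33 in wild-type and 3.73, 4.02 and 3.68 in Tet2-/-, a difference of 0.34 (limma unadjusted p = 0.0457, adjusted p = 0.998). Ifnlr1 and Il10rb followed in that list, at 0.25 and -0.20. Sensing and induction genes were 8 higher and 7 lower of 15, led by Tbk1 at -0.22, Tlr7 at 0.44 and Myd88 at 0.32.

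Further inducible genes were more often higher than lower, and 0 passed. Of 47 measured inducible genes outside the GTPases, 36 were higher and 11 lower, with a median of 0.11. Over all 25206 probe sets, 12396 were higher and 12597 lower. Tet2-/- replicate 5 held the highest value of 23 of these 47 genes (48.9%), against 14% of all probe sets. Tet2-/- replicate 6 held the lowest of 20 (42.6%), against 20.5%. These background shares depend on level, and 39 of the 47 genes lay above the median probe set. Among probe sets with a mean of 4 to 6, replicate 5 was highest for 25.3% and replicate 6 lowest for 35.6%. Ifi27l2a stood at 5.70, 6.25 and 5.59 in wild-type and 6.05, 6.45 and 6.58 in Tet2-/-, a difference of 0.51 (limma unadjusted p = 0.0376, adjusted p = 0.998). Ifi207, of the DNA-binding PYHIN family, differed by -0.32, and Samd9l by 0.32. Of the 11 other GTPases measured, 10 were higher, with a median of 0.09. Irgm2, a regulator of the immunity-related GTPases, stood at 3.34, 2.95 and 2.90 in wild-type and 3.82, 3.73 and 3.13 in Tet2-/-, a difference of 0.50 (limma unadjusted p = 0.0421, adjusted p = 0.998). Irgm1 differed by 0.19 and Iigp1 by 0.25.

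The differences were also listed by promoter motif, as a description with no test. The 15 listed genes with a response element core had a median difference of 0.09, with 12 higher and 2 lower. The 11 without it had a median of 0.04, with 6 higher and 5 lower. The 8 with a gamma-activated sequence had a median of 0.14, with 7 higher and 1 lower, and the 18 without it 0.08, with 11 higher and 6 lower. Gbp5, Gbp7 and Irf1 are among the 8 listed genes with a gamma-activated sequence. Among other genes on the array, the 663 with the core had a median of 0.01 and the 16763 without it 0.00. The 1576 other genes with a gamma-activated sequence and the 15850 without it both had a median of 0.00.

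**Figure D5:**
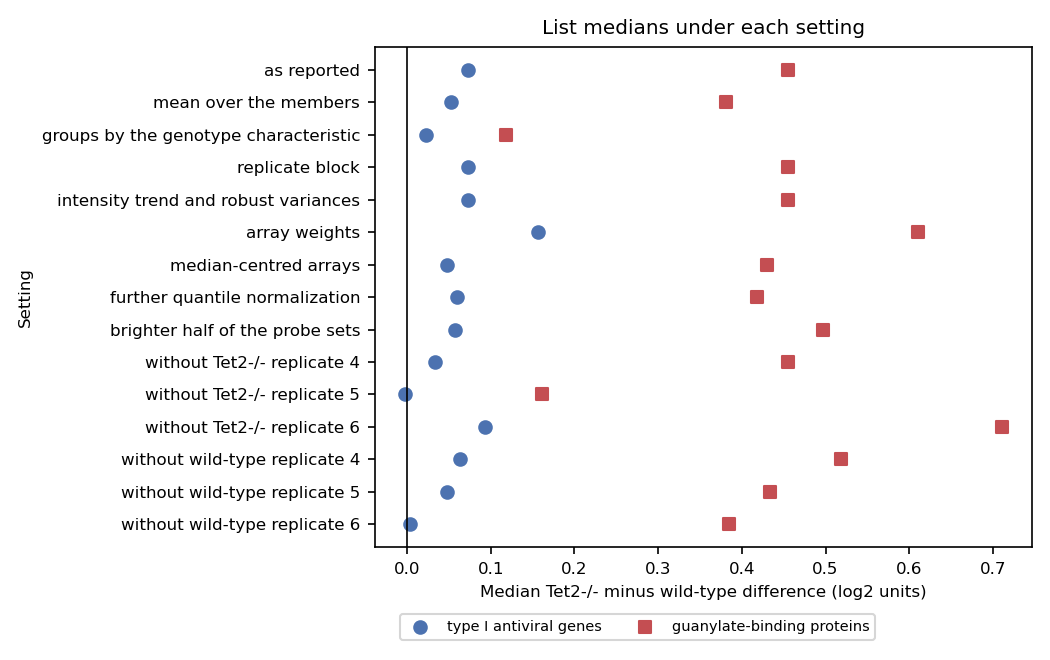
Points give the median Tet2-/- minus wild-type difference (log2 units) of both gene classes under each way of processing the data. The guanylate-binding proteins stay above the antiviral genes in every row, by the least (0.12 against 0.02) with genotype taken from the characteristic.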

How the data were processed

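RNA of 6 macrophage samples, 3 per genotype, was profiled on Affymetrix arrays. The submitters' processing notes name RMA and affy 1.36.1 for the deposited log2 values. That method subtracts background, equalises the arrays' distributions and combines the probes of a gene. The log2 scale was read from the method and from the values, which run from 0.19 to 12.21. Scanner files were not used here. Array medians were 2.76 to 2.93, and the number of arrays limits the precision.

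Gene names came from the platform's annotation. Genotypes were compared by two-sided tests without a covariate, using lmFit and eBayes of limma 3.58.1 under R 4.3.3, over all 25206 probe sets, with Benjamini-Hochberg adjustment at 0.05, after tests on simulated data. No p-value was computed for a list. The members and lists were chosen with earlier results of these data known. All 34 listed genes are described, with, from each other pathway list, the 3 genes of smallest unadjusted p. Other genes were named after their values were seen. Same-numbered samples did not deviate together for every number, so replicate numbers were not used as pairs. Promoter windows came from RefSeq (GRCm38.p6). Other settings were the grouping label, a replicate block, the variance model, array weights, centring, a further quantile normalization, a filter on dim probe sets, the threshold, means for medians, Irf1 among the antiviral genes, and leaving out each array.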

Additional observations from a re-analysis of the deposited data

How the results depend on the processing

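No listed gene passed limma's adjusted threshold under any setting run, including each array left out. Over all probe sets, 0 passed as reported, 2 with array weights, and 0 to 19 with an array left out. Leaving out Tet2-/- replicate 6 gave the 19 calls, and leaving out wild-type replicate 4 gave 1. The cause was not tested. The antiviral minus guanylate-binding gap of -0.382 became -0.095 with genotype taken from the characteristic, where 3 of 4 guanylate-binding proteins were higher, and ran from -0.618 to -0.164 with an array left out. In the other settings run, all the measured guanylate-binding proteins were higher. The antiviral median ran from -0.003 (without Tet2-/- replicate 5) to 0.093 and the guanylate-binding median from 0.161 to 0.711 with an array left out. With array weights these medians were 0.156 and 0.611, and 6 of the 34 genes had an unadjusted p under 0.05, against 2088 of 25206 probe sets.

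With the replicate number as a block, 0 probe sets passed, the medians stayed at 0.073 and 0.455, and the gap at -0.382. At an unadjusted p under 0.05 the block gave 2 of the 34 genes, both guanylate-binding proteins, against 897 of 25206 probe sets. Deviations of same-numbered samples correlated at 0.211, -0.299 and 0.213 for numbers 4, 5 and 6. Those of differently numbered samples ran from -0.513 to 0.523. With 3 arrays per group these values cannot show whether same-numbered samples share a litter or batch. With 3 arrays per group, the interval of Gbp3 ran from -0.21 to 1.33, and dim genes such as Gbp5 and Mx1 are limited by signal near background.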
